A study of Mus musculus with 12 samples.

Results

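The CCN proteins are a family of secreted matricellular proteins, and 5 of their genes, Cyr61 (also named Ccn1), Ctgf (Ccn2), Nov (Ccn3), Wisp1 (Ccn4) and Wisp2 (Ccn5), were followed in sorted dermal papilla (DP) cells of mouse back skin. They were taken by gene name from the tables of P14 and P16, where all 5 were listed, out of 14986 protein-coding genes listed on both days. The sixth family gene, Wisp3, was not analysed here. On GRCm38, Cyr61 (ENSMUSG00000028195) spans chr3:145646976-145649981 on the minus strand. The other 4 lie on the plus strand, Ctgf (ENSMUSG00000019997) at chr10:24595442-24598683, Wisp2 (ENSMUSG00000027656) at chr2:163820861-163833146, and both Nov (ENSMUSG00000037362, chr15:54745702-54754039) and Wisp1 (ENSMUSG00000005124, chr15:66891320-66923201) on chromosome 15.

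The study asked how Fgf signaling in the DP, the mesenchymal cluster at the base of the hair follicle, sets the length of anagen, the growth phase of the hair cycle. RNA was sequenced from the DP of 3 control and 3 dMF1/2 double mutant mice at postnatal day 14 (P14) and as many at P16, with 1 mouse behind each of the 12 libraries, and all samples were labelled as anagen. The dMF1/2 mice carried Cor-cre and floxed Fgfr1 and Fgfr2 on both chromosomes, together with a ROSA26 YFP reporter that Cre switches on. The controls are labelled wild type, and the study's controls had either Cor-cre with 1 floxed copy of each receptor gene or the floxed genes with no Cre. Since cells were sorted for a reporter that needs Cre, all libraries are read as Cre-active cells. The sorted controls are taken to be of the first kind, with 1 floxed copy of each gene, which no label states. In such bulk samples, fewer cells of a type and less RNA per cell cannot be told apart.

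CCN proteins are released into the matrix, where they bind integrins, heparan sulfate proteoglycans and other matrix proteins rather than serving as structural fibres. Cyr61 and Ctgf are widely used as readouts of the Hippo pathway, because the coactivators Yap1 and Wwtr1 (TAZ) switch them on together with TEAD factors in response to matrix stiffness and cell shape, and serum, stretch and tissue dissociation also induce Cyr61 within minutes as an immediate early gene. Nov often opposes Ctgf in fibroblasts, Wisp1 is a Wnt-induced member found in growing and healing connective tissue, and Wisp2 differs from the others in lacking the C-terminal cystine knot domain.

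Cyr61 was the most abundant member, and its promoter is printed because TEAD factors are the best known route to this gene. The RefSeq promoter table (GRCm38.p6) held an entry for Cyr61, and Ctgf, Nov, Wisp1 and Wisp2 had none. The 250 bases before the start of Cyr61 lie at chr3:145649986-145650235 on the minus strand, and the capitals mark a TEAD motif, a heat shock element and a TATA box.
Cyr61: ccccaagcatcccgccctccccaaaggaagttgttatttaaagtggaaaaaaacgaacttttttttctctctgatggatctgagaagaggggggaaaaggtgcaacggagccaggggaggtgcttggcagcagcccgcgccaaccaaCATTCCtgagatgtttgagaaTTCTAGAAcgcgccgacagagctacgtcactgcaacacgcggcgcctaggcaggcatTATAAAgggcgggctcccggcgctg
Motifs were searched on both strands, and no marked motif overlaps another. The TEAD motif CATTCC stood 103 to 98 bases before the start, and 12.6% of 32851 promoter windows of this length held one. The heat shock element TTCNNGAA, at 82 to 75 bases, was held by 7.17% of the windows, and the TATA box TATAAA, at 25 to 20 bases, by 12.4%. A CRE core, TGACG, lay on the opposite strand at 58 to 54 bases and was held by 17.8%. The TCF/LEF motif CTTTGA, the AP-1 motif TGANTCA and the CArG box did not occur in this window, against shares of 13.8%, 6.75% and 1.47%. These matches are descriptions of letters and not mapped binding sites.

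All 12 libraries held 19302358 to 29860750 reads over protein-coding genes, and each member was counted well above the floor, from 247 reads for Wisp2 in its lowest library to 42881 for Cyr61 in its highest. Marker sums covered only genes listed on both days, so their lists differ in length. DP markers were abundant, as the 12 genes together gave 45736 to 142496 normalised reads per library. The 8 keratinocyte markers gave 105 to 587, the 6 melanocyte markers 45.5 to 92.1 and the 4 immune markers 53.8 to 146. The 8 fibroblast markers, which DP and dermal sheath cells also express, gave 2574620 to 6706320, and the 7 dermal sheath markers 17623 to 53481. The 5 pericyte markers gave 7238 to 13391, the 3 adipocyte markers 4684 to 8294 and the 6 endothelial markers 564 to 1380. The P14 libraries with replicate number 1, of both genotypes, stood apart from all others, with 7.06% and 9.15% of their reads on Col1a1 where the other 10 libraries had 13.1% to 17.7%. As a check of the deletion, Fgfr1 was lower in every mutant than in every control on each day, with log2 fold changes of -0.40 ± 0.13 (SE) at P14 and -0.50 ± 0.16 at P16 (limma's adjusted p = 0.50 and 0.13, and 0.069 and 0.011 with the replicate number as a block), whereas Fgfr2 gave -0.11 ± 0.14 and -0.01 ± 0.13 (limma's adjusted p = 0.97 and 0.98). These counts cover whole genes, and reads over the excised parts were not examined here.

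Levels of different genes were compared as normalised reads per kb of exon, using the merged exons of each gene. Cyr61 stood far above the rest at 14149 ± 2511 (SD, n = 12 libraries), from 9378 to 18276. Nov followed at 779 ± 243, Ctgf at 711 ± 78.6, Wisp2 at 507 ± 203 and Wisp1 at 328 ± 101. Cyr61 was above Nov in 12 of 12 libraries, by 10.3- to 32.8-fold, and in mean normalised reads it exceeded 99.7% of genes.

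**Figure D1:**
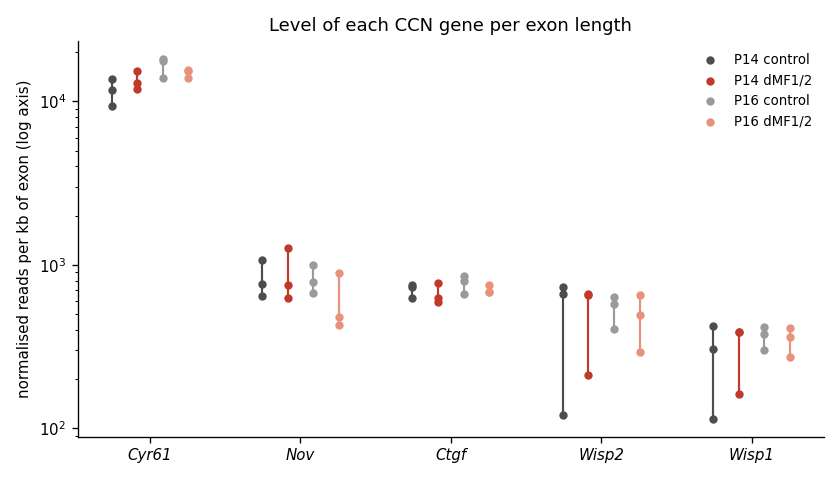
Normalised reads per kb of exon (log axis) for each CCN gene, with 3 libraries a group as points and a line from the lowest to the highest. Cyr61, at 9378 to 18276, lies above every other member, while over all 12 libraries the ranges of Nov, Ctgf, Wisp2 and Wisp1 overlap their neighbours. Within groups, Ctgf lies above Wisp2 without overlap at P16, at 657 to 852 against 402 to 632 in controls.

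The lower places in this order were less separated. Nov exceeded Ctgf in 8 of 12 libraries, so their order did not hold beyond their spread. Ctgf exceeded Wisp2 in 11 of 12 libraries. Wisp2 exceeded Wisp1 in 12 of 12, but by as little as 1.06-fold.

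The members also differed in how much they varied among libraries of a group. The SD within groups, on the log2 scale, was 0.16 for Ctgf and 0.20 for Cyr61, near the median of 0.16 over 11403 genes with a mean of at least 50 reads. It was 0.45 for Nov, 0.64 for Wisp1 and 0.93 for Wisp2, so that 93.5%, 97.4% and 99.3% of genes varied less than these members.

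**Figure D2:**
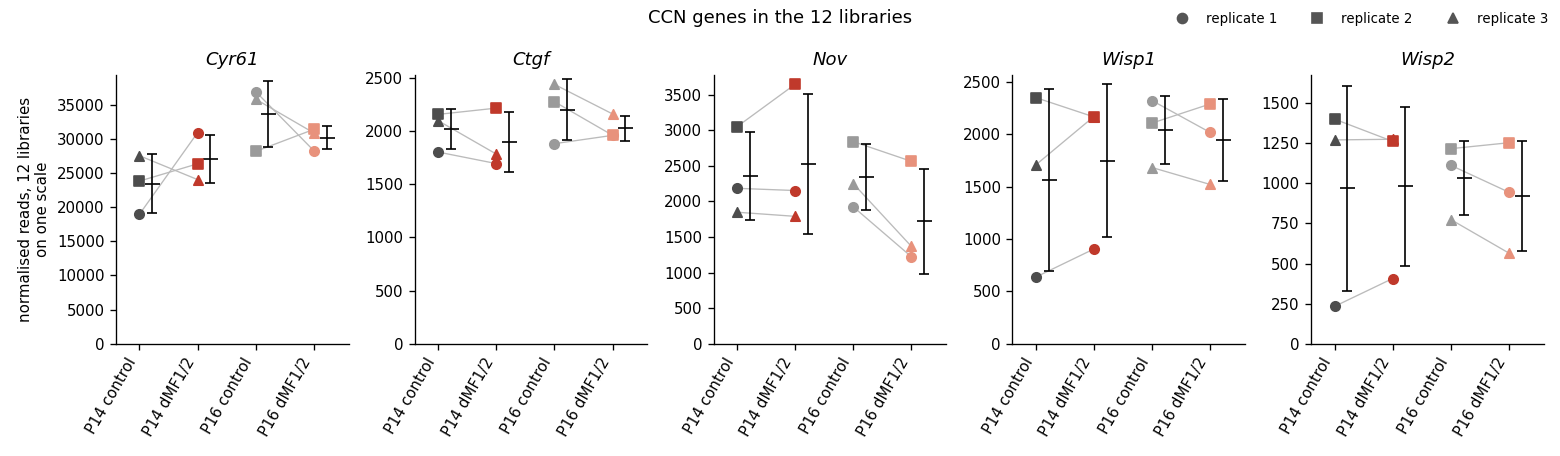
Normalised reads of each CCN gene in the 12 libraries, rescaled together (vertical axis from 0), with grey lines joining libraries of the same day and replicate number and black bars giving the mean ± SD of 3. Wisp1 and Wisp2 fall to 637 and 233 in P14 control replicate 1, and Cyr61 at P16 in controls, 28142 to 36900, lies above Cyr61 at P14 in controls, 18933 to 27518.

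At P14, no CCN gene was detectably changed in the dMF1/2 libraries against the controls. In limma, 0 of the 5 members passed an adjusted p of 0.05, and 0 had an unadjusted p under 0.05, while 0.0525% of all 13334 genes tested passed and 976 had an unadjusted p under 0.05. DESeq2 and edgeR on the recovered reads, with 205 and 2 genes called in all, also called 0 members. So did the fit with the replicate number as a block, in which 1.68% of genes passed. Ranges of control and mutant overlapped for 5 of 5 members, while they did not overlap for 12.7% of all genes tested.

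Cyr61 in P14 controls had 18694, 23466 and 27159 normalised reads in replicates 1, 2 and 3, and the dMF1/2 libraries had 30442, 26087 and 23799. The mutant mean was higher, but 2 of the 3 mutant libraries lay below the highest control. Its log2 fold change was 0.22 ± 0.18 (SE, limma's adjusted p = 0.91), with a 95% interval from -0.21 to 0.66, and without the replicate 1 pair it was -0.02.

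Ctgf, the other common readout of the Hippo pathway, had 1779, 2126 and 2070 normalised reads in P14 controls and 1670, 2195 and 1766 in mutants. The groups overlapped, with a log2 fold change of -0.09 ± 0.13 (SE, limma's adjusted p = 0.98). The 95% interval, from -0.40 to 0.21, was the narrowest among the 5 members at P14.

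Nov had 2156, 3005 and 1824 normalised reads in P14 controls and 2122, 3610 and 1773 in mutants. Replicate 2 was the highest in each genotype, and within replicate numbers the mutant stood at 0.98, 1.2 and 0.97 of its control. The log2 fold change was 0.07 ± 0.29 (SE, limma's adjusted p = 1.0).

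Wisp1 had 629, 2318 and 1685 normalised reads in P14 controls and 893, 2147 and 2149 in mutants. Wisp2 had 230, 1380 and 1253 in controls and 401, 1249 and 1262 in mutants. Both genes were lowest in replicate 1 of each genotype, and the gap between replicate 1 and the others was larger than the gap between genotypes at any replicate number. Their log2 fold changes, 0.25 ± 0.53 and 0.22 ± 0.75 (SE, limma's adjusted p = 0.99 and 1.0), therefore came with intervals from -1.01 to 1.51 and from -1.56 to 2.0. With the replicate 1 pair left out, the values were 0.12 and -0.07.

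At P16, the point estimates of all 5 members were below 0, and no member was called in limma. Of all genes tested, 4.32% passed at an adjusted p of 0.05, 2.18% higher and 2.14% lower in mutants, against 0 of 5 members, with 0 members and 2559 genes at an unadjusted p under 0.05. DESeq2 and edgeR called 0 members, with 1114 and 589 genes called in all. The member median was -0.14 on the log2 scale beside a median of -0.0043 over all genes, and 5 of 5 members overlapped between groups where 24.5% of genes did not.

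Nov had the lowest estimate at P16. It had 1952, 2888 and 2278 normalised reads in controls and 1251, 2606 and 1395 in mutants, so replicates 1 and 3 of the mutants lay below every control while replicate 2 lay among them. The log2 fold change was -0.50 ± 0.27 (SE, limma's adjusted p = 0.37), with a 95% interval from -1.12 to 0.12, and the exact permutation test of the means gave p = 0.30, two-sided, where 3 against 3 allows no p below 0.1. Within replicate numbers the mutant stood at 0.64, 0.90 and 0.61 of its control, lower in 3 of 3 pairs. Blocking on the replicate number left the fold change as it was (SE 0.11) and gave limma's adjusted p = 0.041, in a fit that called 10.4% of genes, 5.56% in the lower direction. Without P16 dMF1/2 replicate 2, the log2 fold change was -0.83 (limma's adjusted p = 0.055), and without P16 dMF1/2 replicate 1 it was -0.30 (limma's adjusted p = 0.70).

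Cyr61 had 37438, 28621 and 36242 normalised reads in P16 controls and 28903, 31905 and 31447 in mutants. The mutant libraries spanned a narrower range that lay within that of the controls, and the log2 fold change was -0.14 ± 0.14 (SE, limma's adjusted p = 0.68). Ctgf had 1909, 2314 and 2469 in controls and 2004, 1993 and 2202 in mutants, again with the mutants inside the range of the controls, and -0.10 ± 0.11 (SE, limma's adjusted p = 0.70). Intervals ran from -0.46 to 0.18 for Cyr61 and from -0.36 to 0.15 for Ctgf.

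Wisp1 at P16 had 2356, 2143 and 1704 normalised reads in controls and 2064, 2329 and 1551 in mutants. Wisp2 had 1128, 1236 and 784 in controls and 966, 1274 and 576 in mutants. In both genotypes replicate 3 was the lowest for both genes, and mutants and controls overlapped. Log2 fold changes were -0.07 ± 0.17 and -0.21 ± 0.28 (SE, limma's adjusted p = 0.89 and 0.77).

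**Figure D3:**
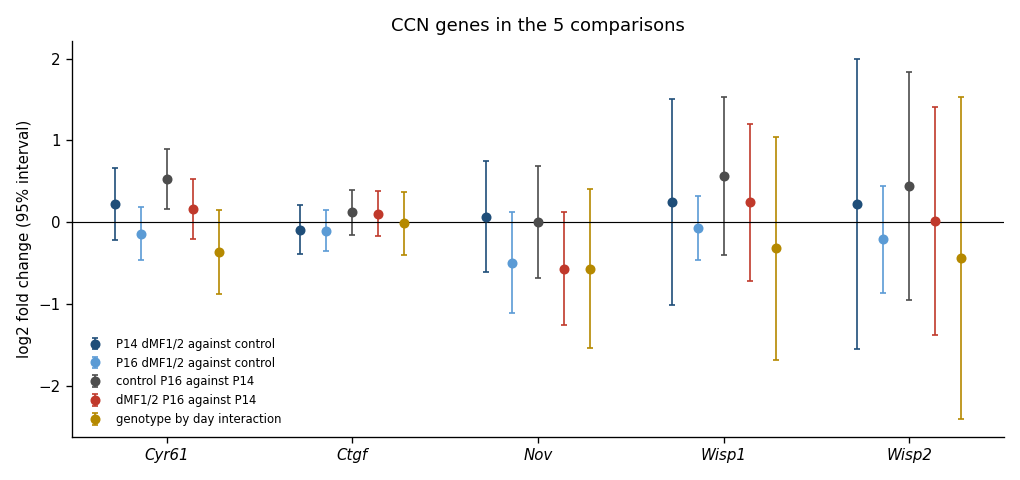
Log2 fold change of each CCN gene with its 95% interval from limma, for genotype on each day, for P16 against P14 in each genotype, and for the difference between the genotypes in that change. The interval of Cyr61 between days in controls, 0.16 to 0.89, is the only one that leaves out 0, and the intervals of Wisp1 and Wisp2 are the widest wherever P14 libraries enter.

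Between P14 and P16 in controls, the interval in which anagen nears its end, Cyr61 came closest to the threshold. After all 12 libraries were rescaled together it had 18933, 23800 and 27518 normalised reads at P14 and 36900, 28142 and 35795 at P16. The days did not overlap, in contrast to the other 4 members, and 36.0% of all genes tested shared this feature. The log2 fold change was 0.53 ± 0.17 (SE), a 1.44-fold higher level at P16, with limma's adjusted p = 0.054 and an exact permutation p of 0.10, two-sided, the smallest that 3 against 3 allows. Limma thus called 0 of 5 members (1 of 5 and 4281 genes at an unadjusted p under 0.05) where 14.5% of genes were called, 6.26% rising and 8.28% falling. With edgeR, 1963 genes and 0 members were called (Cyr61, edgeR's adjusted p = 0.054). DESeq2 called Cyr61 alone among the 5 (DESeq2's adjusted p = 0.012), with 18.0% of genes called.

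The call on Cyr61 depended on single libraries. Limma's adjusted p was 0.032 without P14 control replicate 3 and 0.038 without P16 control replicate 2, and it was 0.12 with a log2 fold change of 0.38 without the replicate 1 pair of P14. Cyr61 belongs to the immediate early genes. The other 21 listed genes of this class summed to 311331, 392413 and 497478 normalised reads in P14 controls and to 680926, 466904 and 521638 in P16 controls. Limma called 5 of these 21 as rising in controls, beside 6.26% of all genes, and 16 were not called. Among the 5 were Atf3, a stress-induced transcription factor, Klf6, Btg2 and the heat shock gene Hspa1a. Their log2 fold changes were 1.05, 0.88, 1.02 and 1.73 (limma's adjusted p = 0.031, 0.022, 0.031 and 0.033). Egr1 and Zfp36 of the same list gave -0.11 and -0.15. The count of calls was 1 without the replicate 1 pair of P14. The part of this group in the result for Cyr61 was not tested.

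In dMF1/2 mice, the same interval gave Cyr61 30875, 26333 and 24027 normalised reads at P14 and 28258, 31370 and 30857 at P16. The days overlapped, with a log2 fold change of 0.16 ± 0.17 (SE, limma's adjusted p = 0.62). The difference from the controls was tested directly and gave -0.37 ± 0.23 (SE) with an interval from -0.88 to 0.15 (limma's adjusted p = 1.0), so a lesser change of Cyr61 in mutants was not shown.

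Nov was level in controls between the days, at 2360 ± 619 and 2338 ± 464 normalised reads (SD, n = 3), a log2 fold change of 0.00 ± 0.31 (SE, limma's adjusted p = 1.0). In mutants it had 2153, 3644 and 1790 at P14 and 1223, 2563 and 1369 at P16. The estimate was -0.57 ± 0.31 (SE, limma's adjusted p = 0.31), the days overlapped because replicate 2 was high on both, and the difference between the genotypes was -0.57 ± 0.45 (limma's adjusted p = 1.0). These values share the P16 mutant libraries with the comparison of genotypes at P16.

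Ctgf had the narrowest intervals between days, with log2 fold changes of 0.12 ± 0.12 in controls and 0.10 ± 0.12 in mutants (SE, limma's adjusted p = 0.54 and 0.68) and bounds within -0.17 and 0.39. Wisp1 gave 0.56 ± 0.44 and 0.24 ± 0.44, and Wisp2 0.44 ± 0.64 and 0.01 ± 0.64 (limma's adjusted p = 0.41, 0.80, 0.67 and 0.99). Leaving out the replicate 1 pair of P14 moved Wisp1 to 0.01 in controls and -0.18 in mutants, and Wisp2 to -0.39 and -0.54. In mutants 5.8% of genes were called, 1.83% rising and 3.97% falling, and 27.6% did not overlap, against 0 of 5 members in either count. At limma's unadjusted p under 0.05 there were 0 members and 3063 genes. DESeq2 and edgeR called 0 members there, with 1311 and 750 genes called in all. For the difference between genotypes, limma called 0.0% of genes and 0 members (648 genes and 0 members at an unadjusted p under 0.05), edgeR 0 and DESeq2 6 genes, none a member. Exact permutation tests of the member means gave p-values from 0.30 to 1.0 in all comparisons of 2 groups other than that of Cyr61 in controls.

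Wisp1 and Wisp2 were lowest in the same 2 libraries as the collagen gene Col1a1, which was singled out after its values were seen. On the common scale of the 12 libraries, Col1a1 had 1285380 and 1792180 normalised reads in P14 control and dMF1/2 replicate 1, where Wisp1 and Wisp2 were lowest, and 2871260 to 4554460 in the other 10 libraries. The 8 fibroblast markers together, among them Col1a1, were also lowest there, at 2574620 and 3180880, against 4497610 to 6706320 elsewhere. Col1a1 alone gave 1285380 and 1792180 of these sums, so they partly repeat its values. Other lists differed there too. The 12 DP markers together were highest in the same 2 libraries, at 132425 and 142496, against 45736 to 118876 elsewhere. Dermal sheath markers gave 17623 and 19292 there, against 18992 to 53481 elsewhere. Over the 12 libraries, the level of Wisp1 varied 3.69-fold and its ratio to Col1a1 1.38-fold. The level of Wisp2 varied 6.0-fold and its ratio to Col1a1 1.84-fold. The part of fibroblast RNA in the levels of Wisp1 and Wisp2 was not tested.

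**Figure D4:**
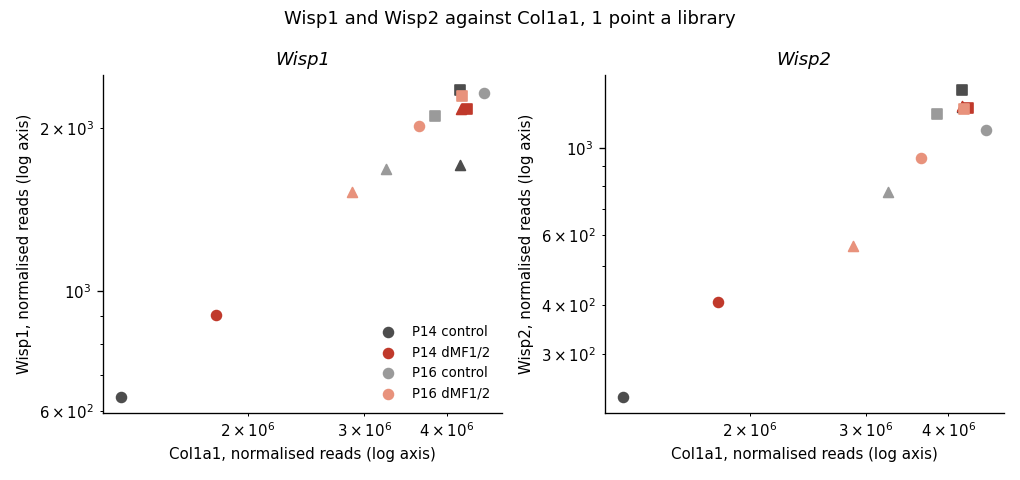
Normalised reads of Wisp1 (left) and Wisp2 (right) against Col1a1 on log axes, with 1 point a library, colours for the 4 groups and circles, squares and triangles for replicates 1, 2 and 3. The circles of both P14 groups lie at the lower left, at 1285380 and 1792180 reads of Col1a1, apart from the other 10 libraries.

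Since those P14 libraries form a cluster of their own, correlations are given for the other 10 libraries, whose pairs share a replicate number and may not be fully independent. Wisp1 and Wisp2 had a Pearson's r of 0.78 (permutation p = 0.018, adjusted p = 0.18 over the 10 member pairs) and a Spearman's rho of 0.64 (permutation p = 0.056, adjusted p = 0.28), and r was 0.16 after leaving out the 2 libraries farthest from the median of Wisp1, so the relation rested on those. With Col1a1, Wisp2 had r = 0.92 and rho = 0.53 (permutation p = 0.0028 and 0.12, adjusted p = 0.014 and 0.28 over 5 genes), and r = 0.51 without its 2 extreme libraries. Wisp1 had r = 0.81 and rho = 0.72 with Col1a1 (permutation p = 0.013 and 0.024, adjusted p = 0.032 and 0.12), and r = 0.33 without its 2 extreme libraries. Because Col1a1 was chosen after its values were seen, the p-values with Col1a1 do not allow for that choice. The permutations also treated libraries of the 4 groups as exchangeable, so the values with Col1a1 are descriptions only. Cyr61 and Wisp2 ran in opposite order by rank (rho = -0.79, permutation p = 0.0087, adjusted p = 0.087; r = -0.52, permutation p = 0.14, adjusted p = 0.36), with r = -0.58 without the 2 libraries farthest from the median of Cyr61. Over all 12 libraries r had the other sign, as Cyr61 and Wisp2 had rho = -0.34 and r = 0.28 (permutation p = 0.29 and 0.38, adjusted p = 0.76 and 0.55). None of the 10 member pairs passed the adjustment in the 10 libraries, whereas over all 12 the pair of Wisp1 and Wisp2 did (r = 0.96, permutation p = 0.00014, adjusted p = 0.0014; rho = 0.79, permutation p = 0.0034, adjusted p = 0.034), which rests on the 2 P14 libraries that stood apart, as r was 0.78 without them (adjusted p = 0.18).

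The genes whose pattern was most like each member were ranked by Pearson's r of log2 reads over all 12 libraries, among 11403 genes, as a description with no test. Cyr61 was most like Dnajb4 (r = 0.94), a heat shock cochaperone, Naa50 (0.94), an acetyltransferase subunit, and Tab2 (0.93), an adaptor of the TAK1 kinase. Nov was most like Efhd2 (0.89), Kank1 (0.88) and Acan (0.88), the last of which encodes the proteoglycan aggrecan. Ctgf was most like Uck2 (0.90), Il4ra (0.88) and Rnpep (0.86). Wisp1 led with Arcn1 (0.99), Slc29a3 (0.99) and Cpz (0.99), and Wisp2 with Fhod3 (0.98), Aebp1 (0.98) and Ppp1r14a (0.98). Without the replicate 1 pair of P14 these last 6 values ran from 0.87 to 0.97. All points share 4 groups and the replicate numbers within days.

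**Figure D5:**
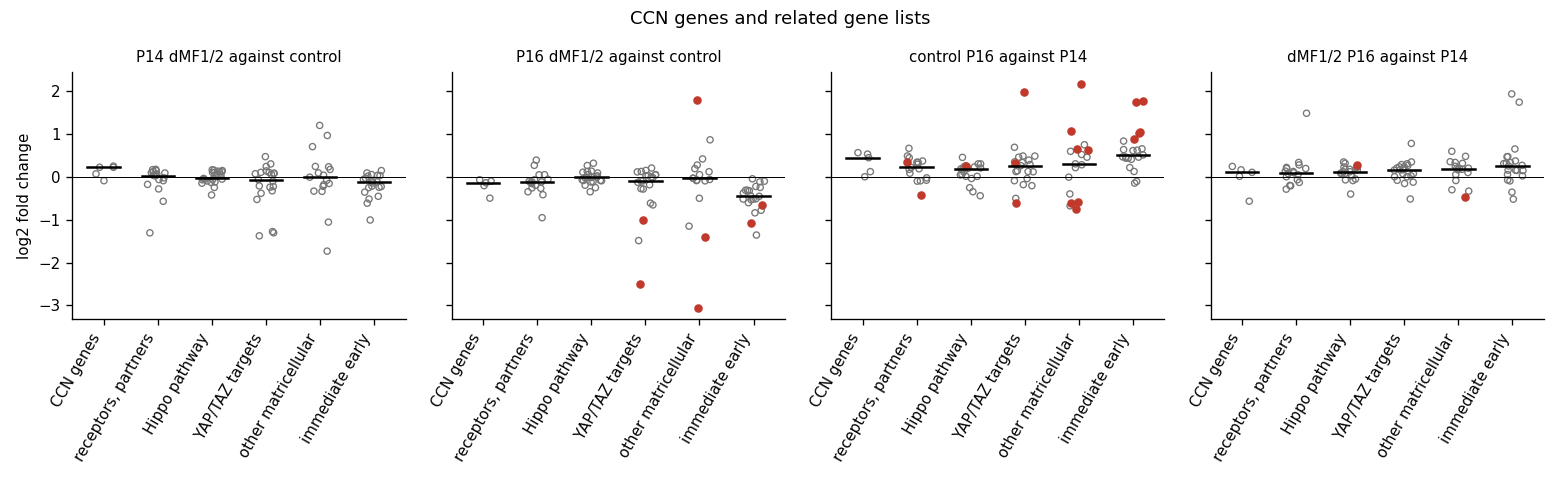
Log2 fold changes (vertical axis) of the tested genes of 6 lists in 4 comparisons, with filled points for genes called by limma, open points for the others and a bar at the median of each list. At P16 the immediate early genes have a median of -0.46 between genotypes, and in controls 0.51 between days, while the CCN genes have -0.14 and 0.44 with no filled point.

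The partners and the pathway of the CCN proteins were read from lists of genes, as counts of called genes beside the shares of all genes given above. Of 20 receptors and binding partners, 17 were tested, and 0 were called on either day between genotypes, with medians of 0.03 at P14 and -0.12 at P16. In controls, 2 of 17 were called between days, beside 14.5% of all genes. Itgav, the integrin subunit through which Cyr61 and Ctgf bind many cells, rose by 0.34 on the log2 scale (limma's adjusted p = 0.046), and Vegfa, the angiogenic factor that Ctgf can sequester, fell by 0.43 (limma's adjusted p = 0.028). In mutants, 0 of 17 were called between days.

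Among 21 components of the Hippo pathway, 0 were called between genotypes on either day, and the medians were -0.04 and -0.02. Yap1, the coactivator itself, rose in controls by 0.25 ± 0.08 on the log2 scale (SE, limma's adjusted p = 0.048, and 0.051 with the replicate number as a block). It was the 1 call of 21, where 14.5% of all genes were called. Rescaled together, the controls had 2741, 3040 and 3070 normalised reads at P14 and 3542, 3470 and 3524 at P16, without overlap. Its call was lost when any 1 control library was left out (limma's adjusted p from 0.056 to 0.16). Wwtr1 gave 0.25 ± 0.11 in controls (limma's adjusted p = 0.14), and in mutants Yap1 gave 0.23 ± 0.08 and Wwtr1 0.04 ± 0.11 (limma's adjusted p = 0.11 and 0.87). Mob1a, an activator of the LATS kinases, rose in mutants by 0.27 (limma's adjusted p = 0.048), again as 1 call of 21, beside 5.8% of all genes. Between genotypes Yap1 gave 0.15 at P14 and 0.13 at P16, and Wwtr1 0.12 and -0.09, none called (limma's adjusted p from 0.43 to 0.94).

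Of 22 other targets of YAP and TAZ, 21 were tested, and 0 were called at P14, where the median was -0.06. At P16, 2 were lower in mutants, with a median of -0.10 (4 called with the replicate number as a block). Igfbp3, an IGF-binding protein, had 145089, 67684 and 80792 normalised reads in P16 controls and 26984, 11128 and 14273 in mutants. These groups did not overlap, and the log2 fold change was -2.51 ± 0.37 (SE, limma's adjusted p = 0.012). Gadd45a, a growth arrest gene, fell by 1.01 (limma's adjusted p = 0.019). In controls between days, Igfbp3 rose by 1.98, Ptpn14 by 0.33, and Ajuba fell by 0.62 (limma's adjusted p = 0.029, 0.024 and 0.029). These were 3 of 21, near the 14.5% of all genes called, with a list median of 0.26. In mutants between days, 0 of 21 were called, with a median of 0.16.

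The other matricellular genes held more calls, with 3 of 17 at P16 and 7 of 17 between days in controls, against 0 at P14 and 1 in mutants between days. Of all genes, 4.32% were called at P16 and 14.5% between days in controls. The 7 calls in controls became 1 without the replicate 1 pair of P14 and 0 to 6 without 1 library, and the 3 at P16 became 1 to 4 without 1 library. Tnn and Tnc, which encode the tenascins W and C, were lower in P16 mutants by log2 fold changes of -3.06 and -1.42. The proteoglycan gene Spock1 was higher by 1.80 (limma's adjusted p = 0.020, 0.018 and 0.0064 for the 3 genes in this order). With the block 5 genes of the list were called at P16, beside 10.4% of all genes. Between days in controls, Tnn rose by 2.17, Thbs1, which encodes thrombospondin-1, by 1.06 and Spock2 by 0.63, and Thbs3 fell by 0.58 (limma's adjusted p = 0.028, 0.025, 0.031 and 0.012). Thbs3 also fell in mutants by 0.47 (limma's adjusted p = 0.047). List medians, from -0.04 to 0.30 over these 4 comparisons, lay beside all-gene medians of -0.0043 to 0.014.

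Of the 21 immediate early genes, 2 were called at P16, both lower in mutants, and 19 were not, beside 2.14% of all genes lower. The list median was -0.46. With the block 7 were called, beside 10.4% of all genes, and 0 to 6 were called without 1 library. Atf3 fell by 0.65 and Ier5 by 1.08 (limma's adjusted p = 0.022 and 0.040). Their sums in P16 mutants, 415896 to 446273, lay below those of P16 controls, 466904 to 680926, while Cyr61 overlapped between the same groups. Between days, 5 of 21 were called in controls (median 0.51) and 0 in mutants (median 0.25), beside 14.5% and 5.8% of all genes. The 5 calls became 1 without the replicate 1 pair of P14, and 0 to 6 without 1 library.

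Some cell markers differed in these comparisons too. At P16 and in controls between days, limma called 0 dermal sheath, fibroblast, pericyte, immune, melanocyte and keratinocyte markers. Of 12 DP markers, 4 were higher in P16 mutants, beside 2.18% of all genes, and 8 were not called. Values of the list ran from -0.18 to 3.20, with a median of 0.97 (Rspo3 3.20, Alpl 2.45, Prom1 1.07 and Fgf10 0.96, with limma's adjusted p from 0.0033 to 0.037). In controls 6 of 12 fell between days, beside 8.28% of all genes, with a median of -0.96. Rspo3, Alpl, Lef1 and Corin gave -2.74, -1.97, -1.16 and -2.22. By in situ hybridization, the paper found Rspo3 below detection in the control DP at P16 and abundant in the mutant DP. Summed DP markers were 45736 to 75846 in P16 controls and 81463 to 118876 in P16 mutants. The adipocyte gene Plin1 was 2.43 higher in P16 mutants and fell by 2.37 in controls between days (limma's adjusted p = 0.0060 and 0.0056). It was the 1 call among 3 adipocyte markers tested, whose medians were -0.06 and -0.23. At P16 their values ran from -1.03 to 2.43, and in controls from -2.37 to 0.66. The endothelial gene Tek fell by 0.94 in controls (limma's adjusted p = 0.034). Tek was the lowest of 6 endothelial markers tested, which had a median of 1.08 and reached 2.34. The part of cell composition in the values of the CCN genes was not tested.

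Few of the list calls withstood the loss of any 1 library. Of 12 named list genes called at P16, 4 kept their call (Spock1, Alpl, Rspo3 and Plin1), and of 20 called in controls between days, 4 did (Alpl, Rspo3, Lef1 and Plin1), while 9 of these 20 kept it without the replicate 1 pair of P14.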

How the data were processed

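RNA of FACS-sorted DP cells was sequenced from 4 groups of 3 mice (P14 and P16, control and dMF1/2). The authors depleted ribosomal RNA, made directional libraries, trimmed reads with Trimmomatic, mapped them with TopHat2 (version 2) to mm10 (GRCm38.p4), counted them per gene with HTSeq and normalized them with DESeq2. The deposited signal values are reads divided by DESeq2 size factors over the 6 libraries of a day, and whole reads were recovered from 100% of values (tolerance 0.01). The tables also hold the authors' own fold changes and p-values, which were not used. Gene coordinates come from the deposited annotation, and exon lengths from GENCODE M21 on GRCm38. The tables list 15209 genes at P14 and 15334 at P16.

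Genes with a mean of at least 10 normalised reads were tested with limma 3.58.1 under R 4.3.3, with an empirical Bayes trend, on log2(normalised reads + 1), so that fold changes of low genes are understated, with Benjamini-Hochberg adjustment over all genes tested and a threshold of 0.05. Genotypes were compared in the deposited scaling of each day. Changes between days and their difference used the 12 libraries rescaled by median of ratios in 1 fit. Exact permutation tests were two-sided. Permutation p-values of correlations used 100000 resamples. On simulated reads for genotype at P16 (15334 genes), limma recovered 89% of log2 changes of 1 and 100% of changes of 2, and for the difference between genotypes 44% and 99%. Changes were placed only in genes with a mean of at least 50 reads, drawn at random, and no smaller change was simulated. Nov, Wisp1 and Wisp2 varied more within groups than 93.5%, 97.4% and 99.3% of genes. The shares recovered therefore do not measure what could be found for these members. All simulated libraries, those for P14 included, used the means and spread of P16. The shares for the difference between genotypes therefore do not describe the real P14 libraries. At P16, 6.9% of limma's calls on simulated reads were false, against 13.3% with the block and 14.6% with DESeq2. The simulated libraries carried no effect of the replicate number. The 13.3% therefore does not measure the block in the real libraries.

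Libraries with the same replicate number deviated together within a day (correlations of deviations over genes 0.586, 0.389 and 0.304 at P14, and 0.256, 0.293 and 0.311 at P16), so the number was used as a block as an alternative. What it marks is not given in the sources used here. Other alternatives were DESeq2 1.42.0, edgeR 4.0.16, TMM, pseudocounts of 0.1 and 10, other filters, other sets of libraries in the fit and leaving out each library. Leaving out both P14 libraries numbered 1 was added after seeing the data.

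The members, lists and rules were chosen with earlier results of these data known. Genes named are the 5 members, Fgfr1, Fgfr2, Yap1, Wwtr1, up to 4 called genes with the smallest p per list and comparison, and the 3 genes most like each member.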

Additional observations from a re-analysis of the deposited data

How the results depend on the processing

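No member was called in any of the 5 comparisons by limma, and of 425 recomputed member values, 386 kept their direction and their side of the threshold, 5 passed it and 34 changed sign, the cause of which was not tested. The block for the replicate number took Nov past the threshold at P16 (log2 fold change -0.50) and in mutants between days (-0.57, 1 member each); since numbers did not pair libraries across days (correlations from -0.162 to 0.208), the second value rests on a shared number only. No paired fit changed another member. For Cyr61 in controls between days, DESeq2 gave 0.52 with 1 member called, and leaving out 1 library gave 0.38 to 0.65 with 0 to 1 called.

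Leaving out 1 library moved the P14 values of Nov between -0.23 and 0.28, of Wisp1 between -0.30 and 0.67 and of Wisp2 between -0.61 and 0.77, and at P16 Wisp1 between -0.20 and 0.10 and Wisp2 between -0.47 and 0.11. In controls between days it moved Nov between -0.16 and 0.20 and Wisp2 between -0.39 and 0.90, and in mutants Wisp1 between -0.18 and 0.45 and Wisp2 between -0.54 and 0.33. For the difference between genotypes it moved Ctgf between -0.12 and 0.10, Wisp1 between -0.74 and 0.23 and Wisp2 between -0.98 and 0.40, and array weights turned Ctgf to 0.036. For Fgfr2, leaving out 1 library gave -0.22 to 0.031 at P14 and -0.086 to 0.13 at P16, where DESeq2 and edgeR gave 0.00015 and 0.00019, and Wwtr1 in mutants between days ranged from -0.013 to 0.12. In mutants between days, DESeq2, edgeR and TMM turned Wisp2 to -0.091, -0.087 and -0.0043. Without both P14 libraries numbered 1, an alternative chosen after seeing the data, P14 values turned to -0.019 (Cyr61), -0.067 (Wisp2) and -0.013 (Wwtr1), Wisp2 to -0.39 in controls and -0.54 in mutants, and Wisp1 to -0.18 in mutants.

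The counts of called genes depended more on the processing. At P14, 7 genes became 205 with DESeq2, 2 with edgeR, 224 with the block, 11 in the joint fit and 0 to 18 without 1 library. At P16, 582 became 1114 with DESeq2, 1403 with the block and 149 to 684 without 1 library. In controls, 1951 became 806 in a fit of the 6 libraries compared, 951 without the P14 pair and 693 to 1945 without 1 library, and in mutants 778 became 1311, 322 and 257 to 678 (DESeq2, 6 libraries, without 1). For the difference, 0 became 6 with DESeq2, 2 without the P14 pair and 0 to 2 without 1 library.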
